A study of Mus musculus with 19 samples.

Results

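The genes described here are the drug and bile acid transporters of the liver RNA-seq table, taken as every row whose symbol starts with Slco, Slc10a, Slc22a, Slc47a, Abcb or Abcc. There were 71 such genes among 24054 rows, namely 26 Slc22a, 15 Slco, 10 Abcb, 10 Abcc, 8 Slc10a and 2 Slc47a genes. The study asked how loss of RALY, a heterogeneous nuclear ribonucleoprotein, alters the liver transcriptome. Both groups were Raly flox/flox C57BL/6 mice on chow, and liver was taken 4 weeks after an adeno-associated virus had been injected. Of the mice available here, 3 were given AAV8.TBG.Cre (L-RalyKO) and 3 AAV8.TBG.GFP (control, called wild type in the labels). The paper's figure of the liver RNA-seq states 4 per group. The TBG promoter directs Cre to hepatocytes, so other liver cells keep their floxed alleles. Mice were male unless stated otherwise, and the age of the chow-fed animals is not given in the sources used here. Values are read counts scaled to each library's effective size, called scaled CPM, without division by transcript length. Between 28302983 and 38052705 reads were counted on genes per mouse. Raly itself, whose floxed exons Cre deletes, was at 50.1, 48.6 and 46.8 in control livers and at 6.34, 6.61 and 7.39 in L-RalyKO livers. Every L-RalyKO liver was therefore below every control liver for the targeted gene, as the labels require.

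Hepatocytes face blood on one side and bile on the other, and each side has its own transporters. On the blood side, the sodium-dependent carrier Slc10a1, the Slco (OATP) carriers and several Slc22a carriers take up bile acids, organic anions and organic cations. On the bile side, ATP-driven pumps of the Abcb and Abcc families move bile salts, phospholipid and conjugated drugs into the canaliculus, and Slc47a1 exports organic cations in exchange for protons. Further Abcc pumps return conjugates to blood, and several Abcb proteins sit in mitochondria or lysosomes instead of the cell surface.

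Of the 71 genes, 39 had a mean value of at least 1 over the 6 livers and 32 did not. Among the 32 low genes, 19 had reads in at least 1 liver and 13 had none, including the renal organic anion transporters Slc22a6 and Slc22a8 and the renal cation transporter Slc22a2. Of 4 markers of the kidney tubule, Umod and Slc5a2 were at 0 in all livers and Slc34a1 had at most 0.0290. The fourth, Lrp2, was at 0.328 to 0.595 in control and at 0.377 to 1.13 in L-RalyKO livers, with overlap. With a floor of 3 reads, a gene without reads could have had a value of up to 0.0789 to 0.105, depending on the library, and this bound covers counting error only. Just above the limit of 1 were Slc10a3-ubl4 (1.85 in control and 1.57 in L-RalyKO livers) and Abcc1 (1.76 and 1.89). Just under it were Abcb1b (0.833 and 1.14) and Slc22a27 (1.70 and 0.217).

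Close relatives differed most plainly in a row of organic anion transporter genes on chromosome 19, and their sequences are given first because the reads of these genes can be told apart only where the sequences differ. In the GENCODE vM1 annotation of NCBIM37 (mm9), all are on the - strand: Slc22a26 (chr19:7855531-7877157), Slc22a27 (chr19:7938881-8040517), Slc22a28 (chr19:8136699-8206472), Slc22a29 (chr19:8234655-8337108) and Slc22a30 (chr19:8409861-8479601). Over their coding sequence, Slc22a27 and Slc22a29 were 97.3% identical and Slc22a28 and Slc22a30 were 98.8% identical, whereas identity between a gene of the first pair and a gene of the second was 91.5% to 92.2%. The order along the chromosome alternates between the pairs. Of 1659 aligned coding columns, 97 separated the pairs, 68 varied in another way and 3 held a gap. The 120-base stretch with the most such columns is printed here, 5′ to 3′ along the transcript, with the 18 bases that separate the pairs in capitals. It covers coding bases 951 to 1070 of Slc22a27 and Slc22a29 and coding bases 954 to 1073 of Slc22a28 and Slc22a30.
Slc22a27: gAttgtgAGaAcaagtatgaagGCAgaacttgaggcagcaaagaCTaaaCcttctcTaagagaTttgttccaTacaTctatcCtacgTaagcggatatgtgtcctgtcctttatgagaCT
Slc22a29: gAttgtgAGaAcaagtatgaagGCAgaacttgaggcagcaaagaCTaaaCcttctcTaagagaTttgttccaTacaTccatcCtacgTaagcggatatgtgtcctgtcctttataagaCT
Slc22a28: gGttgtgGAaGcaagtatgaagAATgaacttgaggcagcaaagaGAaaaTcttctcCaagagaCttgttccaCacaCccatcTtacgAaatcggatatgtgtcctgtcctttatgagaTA
Slc22a30: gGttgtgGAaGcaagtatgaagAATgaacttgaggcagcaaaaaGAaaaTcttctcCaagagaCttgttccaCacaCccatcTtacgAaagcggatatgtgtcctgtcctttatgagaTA

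Slc22a27 had values of 2.06, 1.68 and 1.35 in control livers and of 0.175, 0.319 and 0.158 in L-RalyKO livers. These came from 69, 48 and 50 reads in controls and 6, 11 and 6 reads in L-RalyKO livers. Slc22a29 was at 1.01, 0.666 and 0.757 in control and at 0.0873, 0.174 and 0.105 in L-RalyKO livers, from 34, 19 and 28 reads against 3, 6 and 4 reads. For both genes each L-RalyKO liver was below each control liver, and the L-RalyKO mean was 12.8% (Slc22a27) and 15% (Slc22a29) of the control mean. The gene that lies between them, Slc22a28, was at 12.0, 10.1 and 11.4 in control and at 14.1, 9.95 and 11.2 in L-RalyKO livers, and the groups overlapped. Slc22a30 was at 124, 125 and 126 in control livers and at 153, 137 and 141 in L-RalyKO livers, where all L-RalyKO livers were above all controls. Slc22a26, at the other end of the row, was low in both groups (0.402 ± 0.0265 and 0.310 ± 0.0893, SD, n = 3 mice each).

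Slc22a27 and Slc22a29 did not reach the mean of 1 set for the main test, and they were singled out after their values had been seen. In a fit over all 17216 genes with at least 1 read, limma gave Slc22a27 a change of −1.14 ± 0.106 (SE) on log2(value + 1), with an adjusted p of 0.00458, and Slc22a29 a change of −0.69 ± 0.0762 (SE), with an adjusted p of 0.00769. Adding 1 makes the change of genes at such low values look smaller than it is. On the recovered reads, edgeR's quasi-likelihood test gave log2 fold changes of −2.95 (adjusted p = 0.000325) and −2.71 (adjusted p = 0.00251). In these fits 3 of 58 genes of the families passed an adjusted p of 0.05, all lower, against 1.34% of all genes called lower with limma and 2.65% with edgeR. When 1 liver was left out, the adjusted p of Slc22a27 in limma rose to between 0.051 and 0.098 in 5 of 6 cases and stayed at 0.0215 without control 3. That of Slc22a29 lay between 0.051 and 0.103 in 4 cases and was 0.0437 without control 2 and 0.0493 without control 3. The log2 change of both genes was negative in each of the 12 alternative fits. Of the 50-base words in the exons of Slc22a27 and Slc22a29, 31.3% and 28.6% also occur in another gene, against 53.9% for Slc22a28 and 33.7% for Slc22a30. Slc22a27 and Slc22a29 each shared the most words with the other. How reads that match several of these genes were counted is not given in the sources used here, so the split of reads among them is uncertain. The calls of Slc22a27 and Slc22a29 may therefore not be independent of each other.

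**Figure D1:**
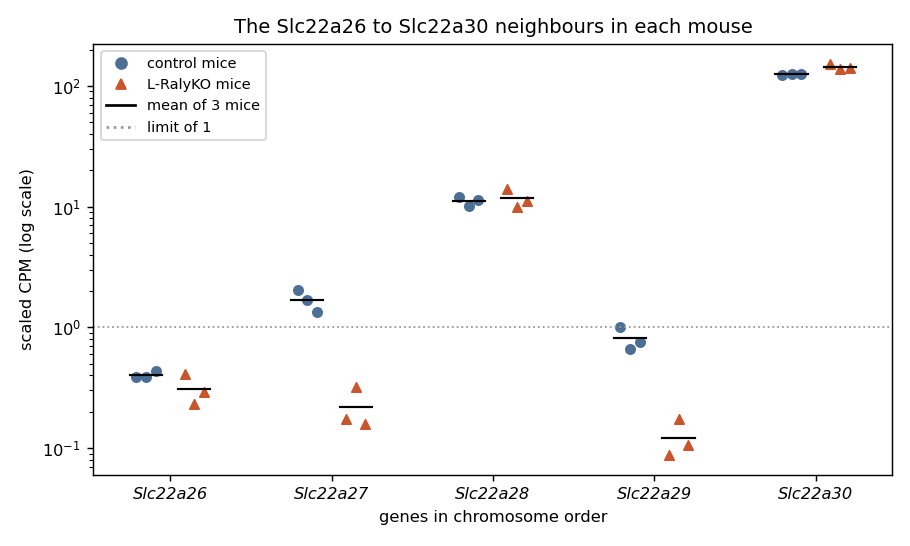
Scaled CPM (log axis) of 5 neighbouring Slc22a genes in each of 3 control mice (circles) and 3 L-RalyKO mice (triangles), with black bars for the mean of 3 mice and a dotted line at the limit of 1. The L-RalyKO livers are below all control livers for Slc22a27 and Slc22a29, overlap them for Slc22a26 and Slc22a28 and are above them for Slc22a30.

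The windows upstream of these genes were compared in the RefSeq table of GRCm38.p6, which gives the 250 bases before the annotated start. The windows of Slc22a28 and Slc22a30 were 95.2% identical, and that of Slc22a29 was 68.8% and 70% identical to them. They are shown because Slc22a29 was lower in L-RalyKO livers and the other pair was not. All are from the - strand of chromosome 19, written 5′ to 3′ in the direction of transcription, at chr19:8131983-8132232 (Slc22a28), chr19:8405106-8405355 (Slc22a30) and chr19:8218901-8219150 (Slc22a29). Capitals mark CCAAT, searched on both strands.
Slc22a28: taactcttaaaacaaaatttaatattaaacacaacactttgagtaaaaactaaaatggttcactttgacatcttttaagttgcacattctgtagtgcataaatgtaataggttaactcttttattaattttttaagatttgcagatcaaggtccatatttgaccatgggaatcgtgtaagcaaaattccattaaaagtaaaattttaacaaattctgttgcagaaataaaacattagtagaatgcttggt
Slc22a30: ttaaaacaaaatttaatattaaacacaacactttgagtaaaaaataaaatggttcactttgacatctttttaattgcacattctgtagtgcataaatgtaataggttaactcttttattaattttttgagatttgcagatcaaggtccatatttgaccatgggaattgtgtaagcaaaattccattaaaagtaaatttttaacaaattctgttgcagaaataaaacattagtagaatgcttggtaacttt
Slc22a29: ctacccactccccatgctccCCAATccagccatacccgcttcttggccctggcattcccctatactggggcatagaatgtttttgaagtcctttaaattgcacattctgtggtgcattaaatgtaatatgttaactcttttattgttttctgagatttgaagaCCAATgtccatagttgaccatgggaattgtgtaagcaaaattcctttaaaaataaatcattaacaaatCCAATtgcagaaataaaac

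CCAAT occurred 3 times in the Slc22a29 window, at −230 to −226, −87 to −83 and −19 to −15 from the start, and not in the other 2 windows. It also occurred at −63 to −59 in the window of Slc22a26, which is not shown and whose groups overlapped. These letters occurred in 33.8% of 32851 promoter windows of the same length, so a match is common and is given as a description of the sequence. In the 63 windows of the 55 transporter genes that matched the RefSeq table, CCAAT occurred in 27.0%, TATAAA in 12.7% and TTCNNNGAA, the letters of a STAT element, in 14.3%, against 33.8%, 12.4% and 7.02% of all windows. The window of Slc22a29 lies 34475 bases inside the outer end of the gene in that table, so it may not be where liver transcripts start. The window of Slc22a27 lies 490 bases inside the outer end of its gene and is not shown. It held no CCAAT, and Slc22a27 was also lower in L-RalyKO livers. Because both windows may lie away from the starts used in liver, a link between matches and the change was not tested.

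Levels of different genes can be compared only per length, and for this the scaled reads were divided by the kilobases of annotated exon. Per kilobase, Slc10a1 (NTCP), the main sodium-dependent bile acid carrier, was the most abundant in control livers at 424 ± 13.1 (SD, n = 3 mice). The uptake carrier Slco1b2 (OATP1B2) followed at 276 ± 5.52. Lower levels were found for 4 genes that lay near each other, the bile salt pump Abcb11 (104 ± 13.2), the conjugate pump Abcc2 (99.0 ± 2.66), the blood-side conjugate pump Abcc3 (91.1 ± 5.18) and the anion carrier Slco1a1 (89.4 ± 15.1), and the SD of each of the other 3 overlapped that of Abcb11. Abcb4, the canalicular phospholipid floppase, was at 78.1 ± 5.27. Slc22a18 (47.5 ± 3.90), Abcc6 (45.4 ± 1.21), Slco2b1 (42.0 ± 0.884), Slc47a1 (39.1 ± 3.65) and Slc22a30 (37.1 ± 0.433) came next, with neighbours again close to each other's spread. Slc10a1 and Slco1b2 kept this order in L-RalyKO livers, at 377 ± 18.3 and 296 ± 11.0.

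**Figure D2:**
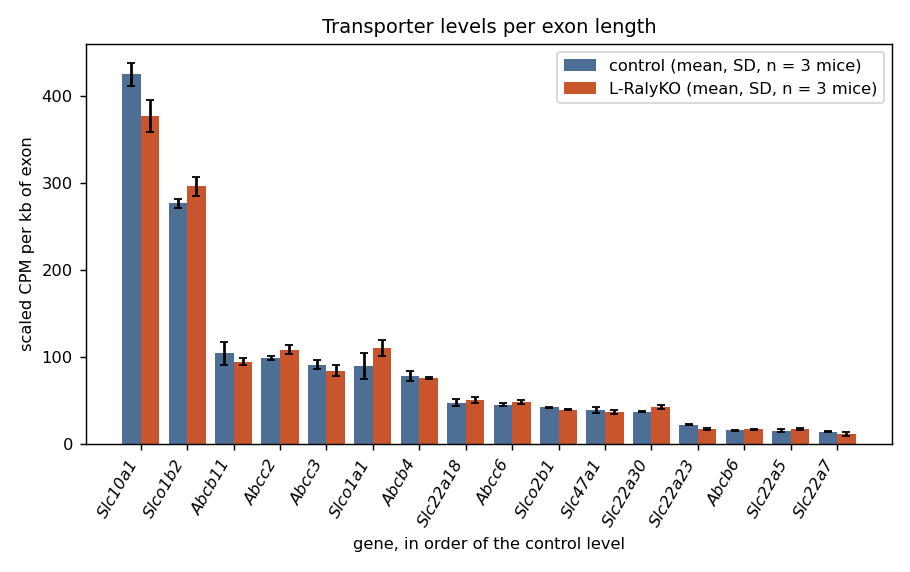
Scaled CPM per kilobase of exon (mean, error bars SD, n = 3 mice per group) for 16 of the transporter genes with the highest control levels, in control and L-RalyKO livers. Slc10a1 and Slco1b2 are the highest shown in both groups, and in controls the error bars of Abcc2, Abcc3 and Slco1a1 each overlap that of Abcb11.

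In sum over all 71 genes, transporter transcripts made up 0.622% to 0.661% of each library's signal, and their summed level was 6324 ± 70.4 in control and 6398 ± 223 in L-RalyKO livers (SD, n = 3 mice each). The 10 highest genes held 83.5% of the control sum. Among families, the Slco sum was 2177 ± 69.8 in control and 2403 ± 115 in L-RalyKO livers, and all L-RalyKO livers were above all controls. The Slc10a sum, of which Slc10a1 is most, went the other way, from 736 ± 19.8 to 660 ± 23.5, again without overlap. The sums of Slc22a (819 ± 37.6 and 775 ± 52.4), Abcb (1072 ± 76.9 and 1017 ± 28.0), Abcc (1389 ± 14.2 and 1417 ± 39.4) and Slc47a (132 ± 12.4 and 125 ± 7.10) overlapped between the groups. Exact permutation of 3 against 3 mice has a smallest two-sided p of 0.1, so this test could not pass 0.05 for any of these sums, and no other test was run on them.

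The comparison of L-RalyKO with control livers gave small differences for most transporters. All 39 tested genes lay within 1.5-fold of the control level, with log2 fold changes between −0.35 and 0.53, and 20 were higher and 19 lower. Their median log2 fold change was 0.002, against 0.004 over all 11580 genes tested, and the median size of the change was 0.111 against 0.095. With limma on log2(value + 1) and Benjamini-Hochberg adjustment over all tested genes, 1 of the 39 (2.56%) passed an adjusted p of 0.05, against 6.55% of all genes. No transporter was called higher and 1 was called lower, where 3.36% and 3.19% of all genes were. At an unadjusted p under 0.05 there were 8 transporters (20.5%, 4 higher and 4 lower) against 22.7% of all genes, edgeR's quasi-likelihood test called the same single gene, and DESeq2 called it and Slc22a30. The groups did not overlap for 7 of the 39 (17.9%), 3 above and 4 below the controls, against 28.1% of all genes. None of these shares was above the background. The typical half-width of a 95% interval was 0.20 on the log2 scale, so that differences smaller than this would often not be seen with 3 mice per group. That interval goes with an unadjusted p of 0.05. The adjusted p is stricter, so larger differences could be missed too. Changes of 0.53 (Slco1a4) and −0.33 (Slc22a7), for example, did not pass. In whole liver, fewer cells of a type and less RNA per cell cannot be told apart. The p values measure the spread between the mice of a group, which the labels describe as separate samples.

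**Figure D3:**
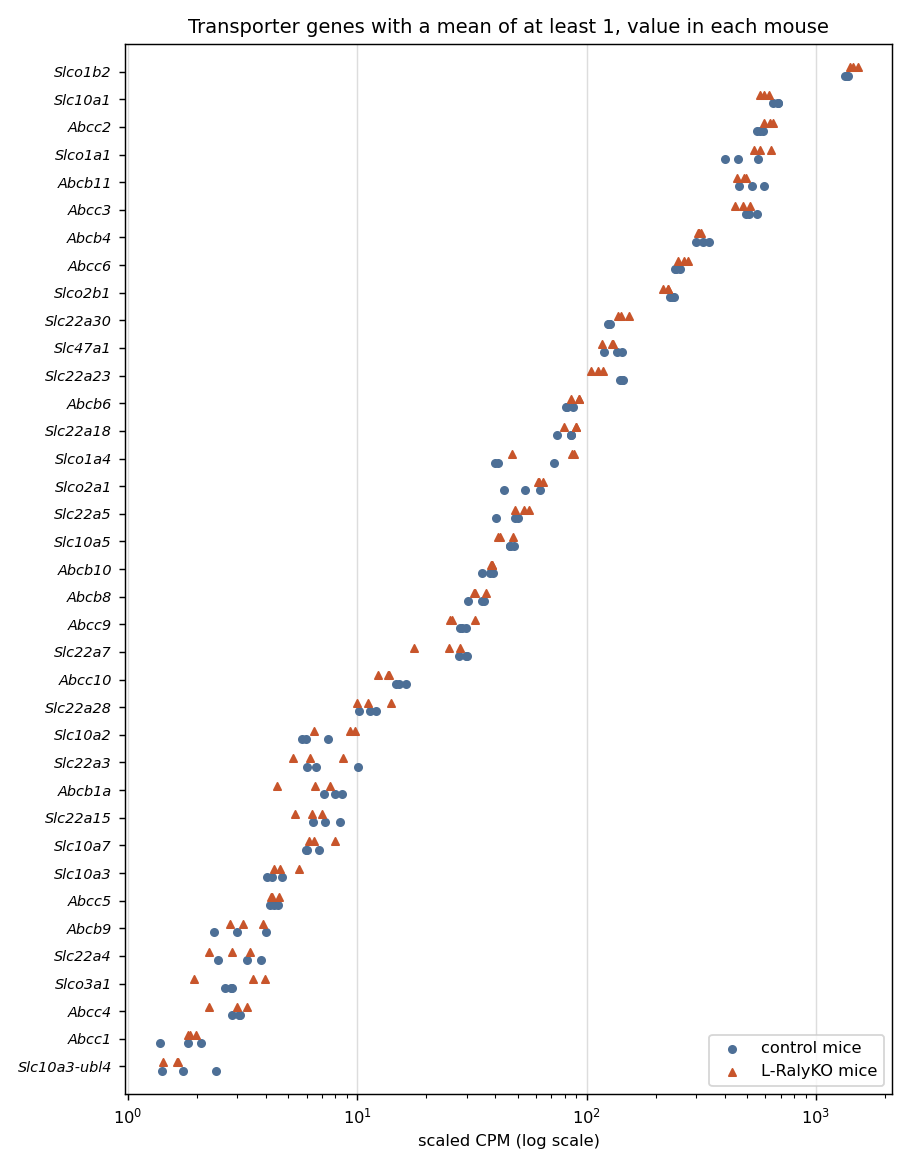
Scaled CPM (log axis) of 37 of the 39 transporter genes with a mean of at least 1, in each of 3 control mice (circles) and 3 L-RalyKO mice (triangles), ordered by mean level. Points of a gene lie close together over a range of levels from about 1 to over 1000, and Slco1a4 has the widest spread among the abundant genes.

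**Figure D4:**
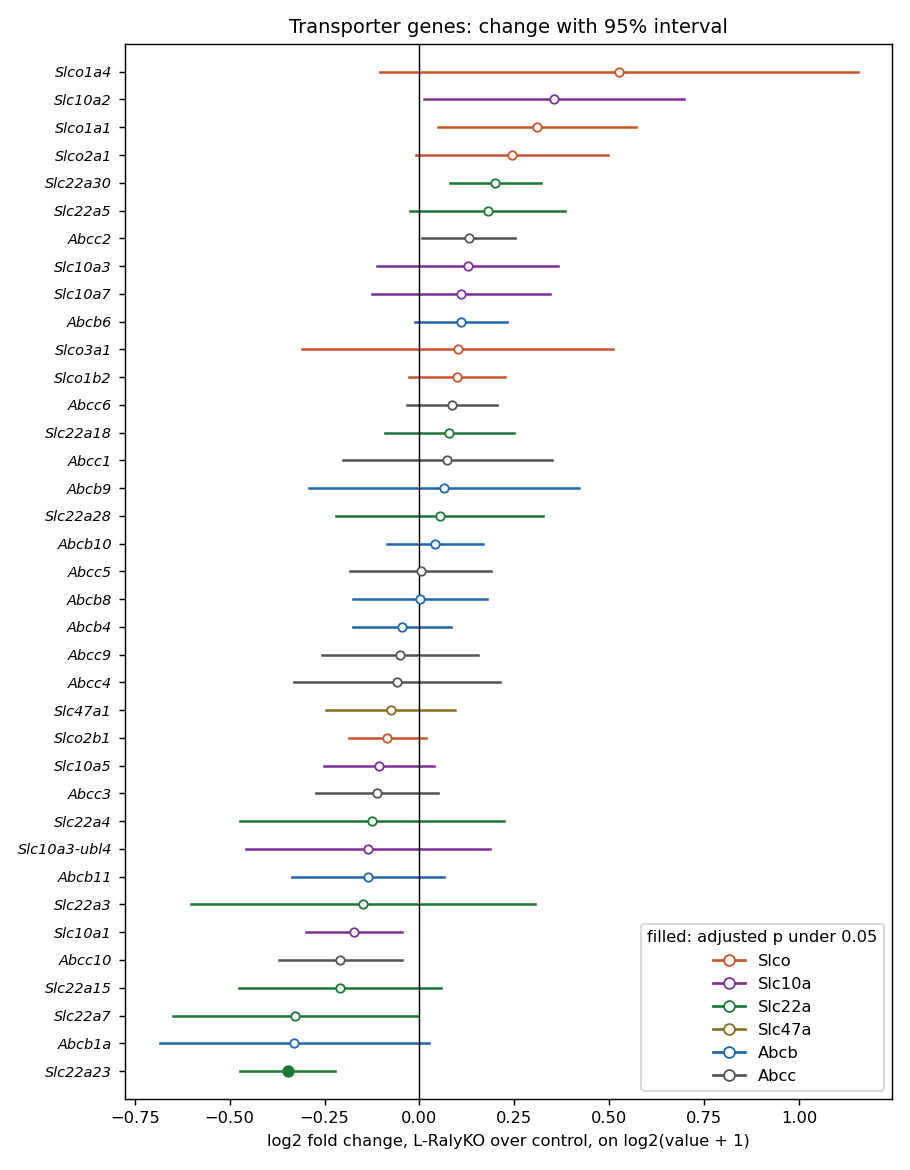
Log2 fold change of L-RalyKO over control on log2(value + 1), with its 95% interval from limma, for 37 of the 39 tested transporter genes, coloured by family. The single filled point, Slc22a23 at −0.35, is the gene with an adjusted p under 0.05.

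Slc22a23, an orphan member of the organic ion transporter family, was the gene that passed. It lies at chr13:34271027-34437051 on the - strand of NCBIM37 (ENSMUSG00000038267.7). Control livers had values of 143, 144 and 140, and L-RalyKO livers had values of 118, 104 and 112. Every L-RalyKO liver was below every control liver, and the group means were 142 ± 2.04 and 112 ± 6.99 (SD, n = 3 mice each), or 78.6% of control. The log2 fold change was −0.35 ± 0.0547 (SE), and its 95% interval ran from −0.47 to −0.22. The adjusted p was 0.0096 with limma and 0.0101 with edgeR. It passed in 15 of 15 alternatives, with a largest adjusted p of 0.036 when control 1 was left out of the limma fit. No 50-base word of its exons was shared with another gene.

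The carriers that bring bile acids and organic ions from blood into the hepatocyte formed a list of 7 genes, among them Slc10a1, Slco1a1, Slco1a4, Slco1b2, Slco2b1 and Slc22a7. None of the 7 passed the adjusted p, 3 were higher and 4 lower, and their median log2 fold change was −0.08. Slc10a1 (chr12:82054172-82068971) was at 683, 681 and 646 in control livers and at 593, 624 and 567 in L-RalyKO livers. All L-RalyKO livers were below all controls, at 88.7% of the control mean, with a log2 fold change of −0.17 (95% interval −0.30 to −0.05, unadjusted p = 0.0128, adjusted p = 0.104 with limma). Its adjusted p ranged from 0.0658 to 0.242 over the alternatives. Slco1b2, which transports bilirubin and unconjugated bile acids, was at 1385, 1332 and 1369 in control and at 1517, 1409 and 1453 in L-RalyKO livers. The groups did not overlap, but the difference was 0.10 on the log2 scale (95% interval −0.03 to 0.23, adjusted p = 0.339 with limma).

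Slco1a1, a carrier of organic anions, had control values of 457, 558 and 400 and L-RalyKO values of 635, 537 and 571. Control 2 lay among the L-RalyKO livers. The log2 fold change was 0.31 (95% interval 0.05 to 0.57, adjusted p = 0.152 with limma), and without control 2 it was 0.44 with an adjusted p of 0.0387, whereas without control 3 it was 0.20. Slco1a4, which carries digoxin and is a target of the pregnane X receptor, was the most variable of the abundant transporters. Its values were 39.9, 72.3 and 41.0 in control livers and 87.8, 86.6 and 47.3 in L-RalyKO livers. It had the largest log2 fold change of the 39 genes, 0.53, with an interval from −0.10 to 1.15 and an adjusted p of 0.303 with limma. In each group 1 liver stood apart from the other 2, so that the groups overlapped, and the change was 0.82 without L-RalyKO 3 and 0.80 without control 2. Over all alternatives the change of Slco1a4 ranged from 0.38 to 0.82. Slco2b1 was at 232, 234 and 241 in control and at 225, 226 and 216 in L-RalyKO livers, lower in all L-RalyKO livers by a log2 change of −0.08 (adjusted p = 0.308 with limma).

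Slc22a7 (OAT2), a carrier of organic anions and nucleotides, was at 29.8, 27.8 and 30.2 in control livers and at 25.0, 17.6 and 27.9 in L-RalyKO livers. Most of its difference of −0.33 came from L-RalyKO 2, without which it was −0.14, and its adjusted p was 0.217 with limma.

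**Figure D5:**
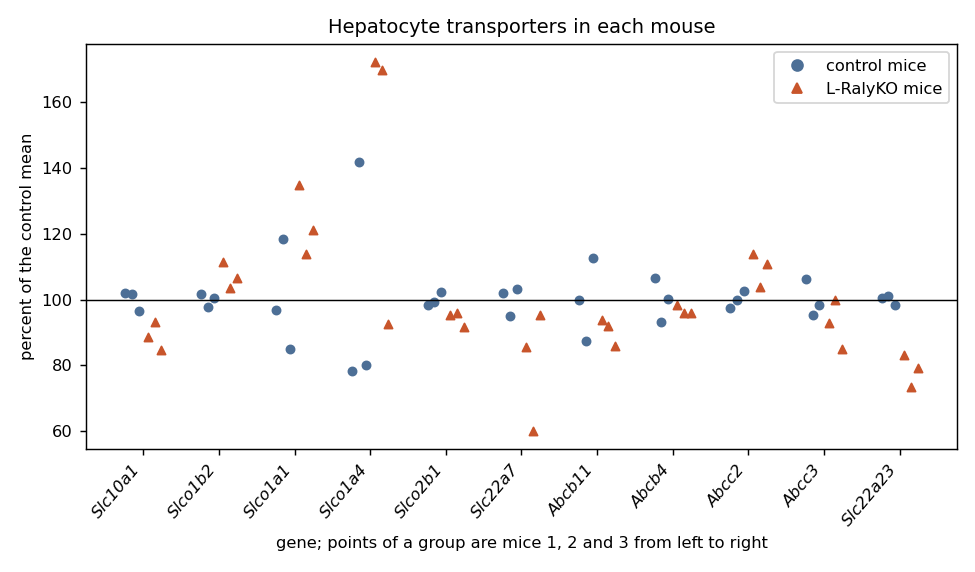
Values of 11 transporter genes in each mouse as a percentage of the control mean, with control mice as circles and L-RalyKO mice as triangles. The groups are apart for Slc10a1, Slco2b1 and Slc22a23 (L-RalyKO below) and for Slco1b2 and Abcc2 (L-RalyKO above), and Slco1a4 shows the widest scatter.

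The pumps of the canalicular membrane move bile constituents into bile. Of 9 genes listed, 8 were tested, none passed, 3 were higher and 5 lower, and the median log2 fold change was −0.06. Abcb11 (BSEP), which secretes bile salts, was at 526, 461 and 594 in control and at 495, 484 and 453 in L-RalyKO livers. The groups overlapped, with a log2 fold change of −0.14 and an interval from −0.34 to 0.06 (adjusted p = 0.401 with limma). The change was −0.05 without control 3 and −0.23 without control 2. Abcc2 (MRP2), which exports conjugated bilirubin and drug conjugates, was at 553, 569 and 584 in control and at 647, 590 and 631 in L-RalyKO livers. All L-RalyKO livers were above all controls, by 0.13 on the log2 scale (95% interval 0.01 to 0.25, unadjusted p = 0.0405, adjusted p = 0.198 with limma).

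Abcb4, which flips phosphatidylcholine toward bile, was at 342, 299 and 321 in control and at 315, 307 and 307 in L-RalyKO livers. Its difference of −0.05 had an interval from −0.18 to 0.08, and the groups overlapped. Slc47a1 (MATE1), the exchanger of organic cations for protons, was at 143, 136 and 119 against 130, 129 and 117 (log2 fold change −0.08, 95% interval −0.25 to 0.09, and between −0.15 and −0.020 when 1 mouse was left out). The drug efflux pump Abcb1a (P-glycoprotein) was low, at 7.18, 8.59 and 8.0 in control and at 4.48, 7.63 and 6.53 in L-RalyKO livers. Its log2 fold change of −0.33 had an adjusted p of 0.253 with limma and was −0.14 without L-RalyKO 1. Its near copy Abcb1b was at 1.01, 0.701 and 0.784 against 1.48, 0.580 and 1.34. Of their 50-base exon words, 17.0% and 18.1% also occur in other genes. The listed canalicular pumps of the Abcg family did not pass either, with control and L-RalyKO means of 92.6 and 82.8 for Abcg2, 103 and 121 for Abcg5 (adjusted p = 0.0704 with limma) and 146 and 154 for Abcg8. Every L-RalyKO liver was below every control for Abcg2 and above every control for Abcg5, and Abcg5 was called in 2 of 15 alternatives, with adjusted p values from 0.0198 to 0.176.

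Pumps that return conjugates to blood were also close between groups. Of the 7 genes listed, 5 were tested and none passed, 3 higher and 2 lower. Abcc3 (MRP3), the main blood-side exporter of glucuronides, was at 552, 495 and 509 in control and at 482, 517 and 441 in L-RalyKO livers (log2 fold change −0.11, 95% interval −0.27 to 0.05). Without L-RalyKO 3 it was −0.052 and without control 1 it was −0.066. Abcc6, whose loss causes pseudoxanthoma elasticum, was at 243, 255 and 246 in control and at 276, 265 and 250 in L-RalyKO livers (0.08, interval −0.03 to 0.20, and 0.051 without L-RalyKO 1). Abcc4 (MRP4) was at 2.83, 3.09 and 3.05 against 3.32, 2.99 and 2.26, and the groups overlapped. Abcc5 was at 4.32 ± 0.186 against 4.34 ± 0.188, and Abcc1 was at 1.76 ± 0.360 against 1.89 ± 0.0763 (SD, n = 3 mice each). Abcc10 (MRP7) was at 14.7, 16.2 and 15.2 in control livers and at 13.8, 13.5 and 12.3 in L-RalyKO livers, all L-RalyKO livers being lower, with a log2 fold change of −0.21 and an adjusted p of 0.122 with limma.

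The list of genes known as targets of the xenobiotic receptors PXR and CAR or of NRF2 (Abcc2, Abcc3, Abcc4, Slco1a4, Abcb1a and the pump Abcg2) had 6 tested genes, of which none passed, 2 were higher and 4 lower. Their median log2 fold change was −0.09.

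Carriers of organic cations and carnitine, Slc47a1 among them, formed a list of 7 genes. Of these, 5 were tested, none passed, and 1 was higher and 4 lower. The higher gene was Slc22a5 (OCTN2), the carnitine carrier, at 48.7, 50.4 and 40.4 in control and at 56.1, 48.5 and 53.4 in L-RalyKO livers (log2 fold change 0.18, 95% interval −0.02 to 0.38, and 0.085 without control 3). Of its 50-base exon words, 26.2% also occur in Slc22a21 or Slc22a4. Slc22a3 (OCT3) was at 7.59 ± 2.20 against 6.71 ± 1.74, and Slc22a4 (OCTN1), a carrier of ergothioneine, was at 3.19 ± 0.684 against 2.84 ± 0.570 (SD, n = 3 mice each). Slc22a30, which had the lowest adjusted p among the tested genes that did not pass, had a log2 fold change of 0.20 (95% interval 0.08 to 0.32), an adjusted p of 0.0591 with limma, 0.0564 with edgeR and 0.0364 with DESeq2.

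The Abcb transporters of mitochondria and lysosomes were close between groups. Of 5 tested genes none passed, 4 were higher and 1 lower, and the median log2 fold change was 0.04. Abcb6, a porphyrin transporter, was at 86.9, 82.0 and 81.6 in control and at 92.8, 92.4 and 85.3 in L-RalyKO livers. Abcb8, another mitochondrial transporter, was at 33.7 ± 2.86 and 33.7 ± 2.42, and Abcb10, which takes part in haem synthesis, was at 37.3 ± 2.07 and 38.4 ± 0.214 (SD, n = 3 mice each).

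Of the remaining Slc10a and Slco genes, Slc10a2 (ASBT), the sodium-dependent bile acid carrier of ileum and bile duct cells, was at 5.72, 6.00 and 7.43 in control and at 9.80, 6.44 and 9.31 in L-RalyKO livers. Its log2 fold change was 0.35 (95% interval 0.01 to 0.70, unadjusted p = 0.0441, adjusted p = 0.207 with limma), and L-RalyKO 2 lay among the controls. The summed level of 7 bile duct cell markers was 64.7 to 65.3 in control and 67.3 to 75.0 in L-RalyKO livers, so that the ranges did not overlap, with 4 of the 7 genes tested, none passing and none at 0. Most of that sum was Spp1 (97.2% of control) and Slc4a2 (111%). Sox9 was at 4.05, 2.81 and 2.46 in control and at 5.88, 4.70 and 4.29 in L-RalyKO livers (log2 fold change 0.55, adjusted p = 0.0774 with limma). Krt19 was at 0.328, 0.456 and 0.405 against 0.553, 0.551 and 1.16, and for both genes every L-RalyKO liver was above every control liver. The part of bile duct cells in the Slc10a2 values was not tested. Slco2a1, the prostaglandin transporter, was at 43.5, 54.0 and 62.3 in control and at 64.7, 61.4 and 61.8 in L-RalyKO livers, with overlap and an adjusted p of 0.235. The summed level of 6 sinusoidal endothelial markers, a cell type in which Slco2a1 is expressed, was 183 to 193 in control and 164 to 204 in L-RalyKO livers, with none of the 6 passing or at 0. Slc10a5, an orphan carrier of liver, was at 46.8 ± 1.16 and 43.5 ± 3.48 (SD, n = 3 mice each).

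Abcc9 (SUR2), the regulatory subunit of a potassium channel, was at 28.8 ± 0.850 in control and 27.9 ± 3.91 in L-RalyKO livers (SD, n = 3 mice each). Its chromosomal neighbour Kcnj8, which encodes the pore of that channel and was picked after its values had been seen, fell from 3.81 to 2.20 (log2 fold change −0.60, adjusted p = 0.0245 with limma and 0.0563 when all genes with at least 1 read were fitted). Of the 6 tested genes of other families in this stretch, 1 further gene passed, which makes 2 of 6 beside 6.55% of all genes tested. It was Gys2, which encodes liver glycogen synthase and rose from 348 to 416 (log2 fold change 0.26, adjusted p = 0.0332 with limma and 0.0566 in the fit of all genes). The Slco1 genes lie in the same stretch of 7 transporter genes, chr6:141472907-142650794, in which 4 had a mean of at least 1 and none passed.

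Proteins that place or assist these transporters, and carriers of other families at the same membranes, were examined as a separate list of 15 genes, of which 13 were tested. The nucleoside carrier Slc29a1 rose from 157 ± 6.21 to 185 ± 1.48 (log2 fold change 0.24, adjusted p = 0.0214 with limma). The scaffold Slc9a3r1 rose from 212 ± 13.4 to 252 ± 6.86 (0.25, adjusted p = 0.0376), and the monocarboxylate carrier Slc16a1 fell from 45.7 ± 3.17 to 36.8 ± 2.24 (−0.30, adjusted p = 0.0379). The other 10 did not pass. The 3 called genes of 13 stand beside 6.55% called among all genes tested, and they passed in 10, 7 and 7 of 15 alternatives, in that order.

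Transcription factors known to act on transporter genes formed a list of 16, of which 15 were tested, 2 were called higher and 1 lower, where 3.36% of all genes tested were called higher and 3.19% lower. Nr1i2, the pregnane X receptor, was at 97.2, 89.6 and 94.9 in control and at 116, 119 and 119 in L-RalyKO livers (log2 fold change 0.33, adjusted p = 0.00725 with limma, called in 15 of 15 alternatives). Hnf4a, a factor of hepatocyte identity, was at 520, 542 and 680 in control and at 900, 809 and 829 in L-RalyKO livers (0.55, adjusted p = 0.0155, 12 of 15). Stat5b, which carries growth hormone signals, fell from 63.3 ± 5.90 to 49.3 ± 3.46 (−0.35, adjusted p = 0.0346, 9 of 15). Bcl6, a repressor that acts beside STAT5 in liver, was at 59.3, 48.2 and 13.9 in control and at 8.99, 12.6 and 10.2 in L-RalyKO livers (adjusted p = 0.0654 with limma and 0.0428 with edgeR). The bile acid receptor Nr1h4 (FXR) was at 174 ± 10.8 and 161 ± 11.5 and Nr1i3 (CAR) at 164 ± 10.7 and 163 ± 1.43 (SD, n = 3 mice each), and neither passed.

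Marker genes of the liver's cell types were read beside these values. The summed level of 6 hepatocyte markers was 81307 to 90301 in control and 90958 to 92492 in L-RalyKO livers, so that the ranges did not overlap. All 6 were higher and none passed. Most of that sum was Alb (103% of control), for which the groups overlapped, as they did for Ttr, Ass1 and Tat. For Apoa1 (121% of control) and Cps1 (125%) every L-RalyKO liver was above every control liver. The part of hepatocyte content in the transporter values was not tested. Kupffer cell markers (5 of 6 in the table) were at 145 to 215 and 149 to 192, and 6 stellate cell markers at 204 to 222 and 190 to 245, so that these ranges overlapped. None of the Kupffer and stellate markers passed, and none of those in the table was at 0.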

How the data were processed

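RNA-seq of 6 livers was used, and the ATAC-seq and ChIP-seq data were not analysed here. Per the methods, stranded libraries were aligned with TopHat v2.0.2 to mm9 and expression was given as FPKM by Cufflinks v2.0.2. What the authors deposited is instead a scaled signal, the reads of each gene over the effective size of its library. All values (100%) were whole multiples of 1 read within 0.01, and their scaling factors were those of TMM in edgeR. Columns were matched to mice by virus and replicate number.

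Groups were compared with limma-trend (limma 3.58.1, R 4.3.3) on values to which 1 was added before taking log2, over 11580 genes with a mean of at least 1, with Benjamini-Hochberg adjustment. The design had been written to use this test where the files did not hold counts. Alternatives were edgeR 4.0.16 and DESeq2 1.42.0 on the recovered reads, other scaling, pseudocount and filters, no trend, a replicate block and leaving out each mouse. EdgeR over all genes with at least 1 read was added after seeing the data. The tests were run on simulated data first, where limma and edgeR kept to the limit set on false calls and DESeq2 exceeded it, so DESeq2's calls carry less weight. A gene with 3 reads has a value of 0.0789 to 0.105, and with 3 mice per group the spread between mice also limits the precision. The members and lists were chosen with earlier results of these data known.

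Genes named are transporters with a mean of at least 1, lower ones next to that limit or, as examples of a family, without reads, and called genes of the lists. Outside this rule, Slc22a21, Slc22a26, Slc22a27, Slc22a29, Bcl6, Nr1h4, Nr1i3, Abcg2, Abcg5, Abcg8, the cell markers Sox9, Krt19, Spp1, Slc4a2, Alb, Ttr, Ass1, Tat, Apoa1, Cps1, Lrp2, Slc34a1, Umod and Slc5a2 and the neighbours Kcnj8 and Gys2 were picked after their values were seen. Coordinates, exon lengths and coding sequences come from GENCODE vM1 on NCBIM37, where 68 symbols matched directly, 1 by a synonym and 2 did not. Coding sequences were aligned with MAFFT 7.526. Upstream windows come from RefSeq, GRCm38.p6. Values of 2 of the 39 tested transporters are not reported here singly, and counts and sums include them.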

Additional observations from a re-analysis of the deposited data

How the results depend on the processing

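Slc22a23 was called in all 15 alternatives. The count of transporters called higher was 0 and became 1 with DESeq2 (Slc22a30) and 0 to 1 when 1 mouse was left out (Slco1a1, without control 2). The count called lower was 1, and 3 when all genes with at least 1 read were fitted with limma or with edgeR, since Slc22a27 and Slc22a29 were then tested. Over all genes, 758 were called in the main test, 731 with edgeR, 1071 with DESeq2, 484 when all genes with at least 1 read were fitted, and 332 to 813 when 1 mouse was left out. Total count scaling moved the median of all genes to −0.03 and called 324 genes higher and 469 lower (40.9% higher), against 389 and 369 (51.3% higher) in the main test.

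Same-numbered mice did not deviate together (r = 0.066, −0.024 and 0.020 across genes), so the numbers were not taken as a pairing. With a replicate block 704 genes and 1 transporter were called.

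The genes whose sign changed had main log2 fold changes between −0.15 (Slc22a3) and 0.10 (Slco3a1), and none was called. Abcb8 was at −0.00051 with edgeR and −0.031 with total count scaling, and Abcc5 was at −0.025 with the latter. When 1 mouse was left out, log2 fold changes ranged from −0.0033 to 0.073 for Abcb10, from −0.096 to 0.0016 for Abcb4, from −0.068 to 0.044 for Abcb8, from −0.069 to 0.21 for Abcb9, from −0.031 to 0.16 for Abcc1, from −0.15 to 0.057 for Abcc4, from −0.026 to 0.029 for Abcc5, from −0.16 to 0.012 for Abcc9, from −0.25 to 0.0033 for Slc10a3-ubl4, from −0.076 to 0.16 for Slc22a28, from −0.32 to 0.051 for Slc22a3 and from −0.048 to 0.33 for Slco3a1. The cause was not tested. Among the values recomputed under the alternatives, 556 kept their direction and side of the threshold, 2 newly passed it, 9 lost it and 19 changed sign. No lost call was of Slc22a23, the only transporter called in the main test. Slc22a27 and Slc22a29 were set against the fit of all genes with at least 1 read, and were called in 7 and 8 of their 12 alternative fits. Genes at a few reads, such as Slc22a29, are limited by depth as well as by 3 mice per group.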
